A study of Mus musculus with 8 samples.

Results

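Mural cells wrap the endothelium of brain vessels, and 10 of their genes were followed in RNA from mouse brain endothelial cells (ECs) that did or did not express a mutant MAP2K1. The 10 were taken from a list of mural symbols, 6 of pericytes (*Rgs5*, *Higd1b*, *Notch3*, *Cspg4*, *Anpep* and *Vtn*) and 4 of vascular smooth muscle (*Acta2*, *Tagln*, *Myh11* and *Cnn1*), among 49315 genes counted. The 4 Mutant libraries came from pups with 1 *R26 GT-Map2k1-GFP* allele, which encodes the constitutively active kinase Map2k1 K57N, and the *Tg-Cdh5CreER* transgene, whose promoter confines the tamoxifen-activated recombinase to the endothelium. The 4 Wild type libraries came from littermates, and the labels do not say whether these carried either allele alone. All pups, on a C57BL/6J background, received tamoxifen at postnatal day 1 (P1) and gave ECs at P9. The cells were pulled from digested whole brain with beads against CD31, and the allele had recombined in only a part of the mutant ECs, so each Mutant library mixes recombined and unrecombined cells with whatever mural cells stayed attached.

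Pericytes lie within the basement membrane of capillaries and are held there by endothelial PDGF-B acting on their receptor PDGFRβ. Smooth muscle cells ring arteries and arterioles and contract through smooth muscle actin and myosin, genes driven by serum response factor (SRF) at motifs called CArG boxes. In the brain, pericytes maintain the blood-brain barrier, and loss or altered coverage of mural cells is a known feature of arteriovenous malformations.

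Between 24833373 and 34196955 reads were counted per Mutant library and between 28146348 and 32208421 per Wild type library. *Map2k1* itself stood at 14619 ± 2851 normalized counts in the Mutant and 1611 ± 116 in the Wild type libraries (mean ± SD, n = 4 each). Normalized counts are counts scaled to a common library size. In the edgeR test over 16887 genes, 21.5% of all genes were higher and 22.9% lower in the Mutant libraries at a Benjamini-Hochberg adjusted p under 0.05, the threshold used throughout. The median log2 fold change over all genes tested was -0.02. These shares are the background against which the mural genes are counted.

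Of the 10 mural genes, all of which were tested, 1 passed the test. *Tagln*, which encodes the actin-binding protein transgelin (SM22α), rose 1.65-fold. None of the 6 pericyte genes passed, and their log2 fold changes ran from -0.44 for *Rgs5* to 0.27 for *Anpep* with a median of -0.01. At an unadjusted p under 0.05 the count was also 0, the lowest p being 0.0778 for *Rgs5*, and DESeq2 called 0 of the 6. The 4 smooth muscle genes ran from -0.63 for *Cnn1* to 0.73 for *Tagln* with a median of -0.39. Mutant and Wild type libraries overlapped for all 10 genes, whereas all Mutant libraries lay above all Wild type libraries for 20.6% of the genes tested, and below them for 21.9%. In these bulk libraries, fewer cells of a type and less RNA per cell cannot be told apart.

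**Figure D1:**
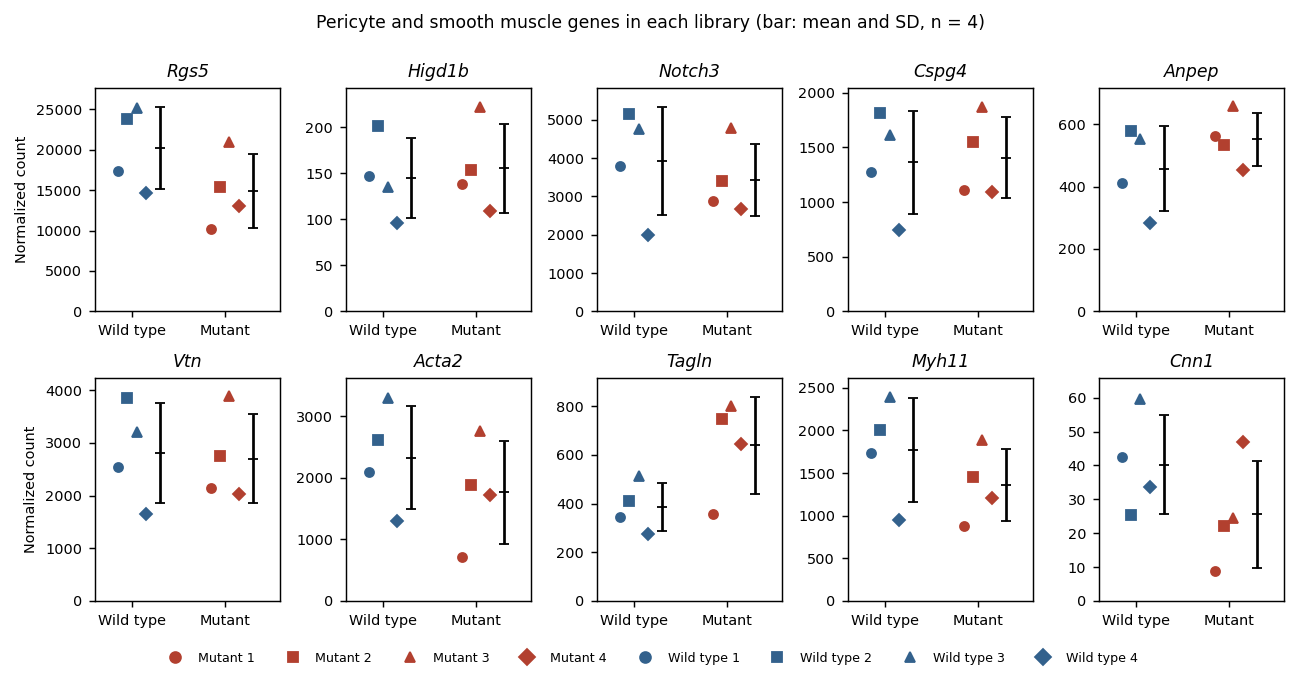
Normalized count (linear axis from 0) of each of the 10 mural genes in the 4 Wild type (blue) and 4 Mutant (red) libraries, with shape marking the replicate number and bars the mean and SD. Mutant and Wild type points overlap in every panel, and for *Tagln* 3 Mutant libraries (646.7 to 802.3) lie above the 4 Wild type libraries (276.3 to 511.8).

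Compared per length, as normalized counts per kilobase of gene length at a common depth (RPKM), *Rgs5* was the most abundant of the 10 genes at 130 (75.1 to 187 over the 8 libraries), at the 98.2nd percentile of the genes tested. *Vtn* followed at 45.7, *Acta2* at 38.8 and *Notch3* at 15.4. *Tagln* at 8.68 and *Myh11* at 7.94 changed places with the condition, *Tagln* being the higher of the pair in 4 of 4 Mutant libraries and in 0 of 4 Wild type libraries. *Higd1b* stood at 5.98, *Anpep* at 4.11 and *Cspg4* at 3.91, and *Anpep* was above *Cspg4* in 3 of 4 Mutant and 1 of 4 Wild type libraries. *Cnn1*, at 0.406, was at the 15.5th percentile. Defining genes of mural cells were therefore readable in every library of these bead-selected ECs, with *Rgs5* in the top 2% and *Cnn1* close to the filter on low counts.

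*Rgs5*, a regulator of G-protein signalling and a standard pericyte marker (chromosome 1, 169655501 to 169695813 on the plus strand, GRCm38), had 10133, 15379, 20975 and 13097 normalized counts in Mutant 1 to 4 and 17430, 23785, 25218 and 14620 in Wild type 1 to 4. The Mutant libraries sat towards the lower end of a shared range, with Mutant 3 above 2 of the Wild type libraries. The means were 14896 ± 4586 and 20263 ± 5061, a log2 fold change of -0.44 (SE 0.23, 95% interval -0.95 to 0.06, adjusted p = 0.137), which did not pass. Library codes in the labels share 3 prefixes, each holding both conditions (replicates 1 and 2, replicate 3, replicate 4), and what a prefix marks is not given. Wild type pups had been picked to match the mutants of their litter, but which libraries share a litter is not given. Within the prefixes the log2 difference was -0.71, -0.27 and -0.16, so *Rgs5* was lower in the Mutant libraries of all 3. With the prefix as a block in the fit it passed (-0.45, adjusted p = 0.0418). Of the fits without 1 library, it passed only in that without Mutant 3 (-0.65, adjusted p = 0.0318). Without Mutant 1 its log2 fold change was -0.27 (adjusted p = 0.342). The exact permutation test on *Rgs5* alone gave a two-sided p of 0.171.

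*Notch3*, the receptor through which mural cells read Notch ligands on the endothelium (chromosome 17, 32120820 to 32166880, minus strand), had 2887, 3403, 4778 and 2684 normalized counts in Mutant 1 to 4 against 3802, 5146, 4762 and 1985 in Wild type 1 to 4. The highest and the lowest of the 8 libraries were both Wild type. Its log2 fold change was -0.19 (SE 0.27, 95% interval -0.79 to 0.41, adjusted p = 0.593). *Higd1b*, a small membrane protein gene used as a pericyte marker (chromosome 11, 102835849 to 102838040, plus strand), had 138, 154, 223 and 109 against 147, 202, 135 and 96.0. The spread within each condition was wider than the distance between the means, 156 ± 48.3 and 145 ± 43.9. Its log2 fold change was 0.10 (95% interval -0.48 to 0.68, adjusted p = 0.781), and leaving out single libraries moved it from -0.12 to 0.30.

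*Vtn* encodes vitronectin, an adhesive matrix protein that brain pericytes secrete (chromosome 11, 78499091 to 78502324, plus strand). It had 2136, 2753, 3884 and 2037 normalized counts in Mutant 1 to 4 and 2533, 3855, 3198 and 1641 in Wild type 1 to 4. Mutant 3 and Wild type 2 were nearly level at the top, and the log2 fold change was -0.06 (SE 0.26, 95% interval -0.64 to 0.52, adjusted p = 0.880). *Anpep*, the surface peptidase CD13 (chromosome 7, 79821803 to 79861059, minus strand), had 561, 535, 657 and 453 against 413, 579, 553 and 285. It was higher in the Mutant libraries within all 3 prefixes (log2 differences of 0.16, 0.25 and 0.67). The fitted change was 0.27 (SE 0.21, 95% interval -0.19 to 0.72, adjusted p = 0.318) and did not pass.

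*Cspg4* encodes the proteoglycan NG2, carried by pericytes and also by oligodendrocyte precursors (chromosome 9, 56865033 to 56899870, plus strand). It had 1114, 1547, 1871 and 1096 normalized counts in Mutant 1 to 4 and 1277, 1816, 1614 and 744 in Wild type 1 to 4, with a log2 fold change of 0.04 (SE 0.26, 95% interval -0.53 to 0.62, adjusted p = 0.903). The conditions covered nearly the same range. Markers of oligodendrocyte precursors moved: 5 of 6 fell (*Olig1*, *Olig2*, *Sox10*, *C1ql1* and *Pdgfra*, the last also on the fibroblast list below), where 22.9% of all genes were lower. The list's median log2 fold change was -2.65. Its summed level was 2.11 to 3.62 RPKM in the Mutant against 8.0 to 12.7 in the Wild type libraries. None of these markers was at 0 in every library, and their part in the *Cspg4* counts was not tested.

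Among the smooth muscle genes, *Acta2*, the smooth muscle actin (chromosome 19, 34241090 to 34255336, minus strand), had 717, 1878, 2758 and 1724 normalized counts in Mutant 1 to 4 and 2102, 2620, 3295 and 1307 in Wild type 1 to 4. Mutant 1 was far below the rest, and the ratio of the highest to the lowest library was 4.6. The log2 fold change was -0.40 (SE 0.36, 95% interval -1.20 to 0.40, adjusted p = 0.398), and it moved to -0.12 without Mutant 1 and to -0.69 without Mutant 3. *Myh11*, the smooth muscle myosin heavy chain that moves on that actin (chromosome 16, 14194527 to 14291408, minus strand), had 880, 1451, 1885 and 1207 against 1738, 2009, 2394 and 946. Its profile followed that of *Acta2*, and its change was -0.39 (SE 0.28, 95% interval -1.002 to 0.23, adjusted p = 0.284).

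*Tagln* (chromosome 9, 45929619 to 45936058, minus strand) had 357, 749, 802 and 647 normalized counts in Mutant 1 to 4 and 345, 412, 512 and 276 in Wild type 1 to 4. Of the Mutant libraries 3 lay above the Wild type range, and Mutant 1 lay inside it. The means were 639 ± 199 and 386 ± 100, a log2 fold change of 0.73 (SE 0.25, 95% interval 0.17 to 1.28, adjusted p = 0.0367). Within the 3 prefixes the log2 differences were 0.46, 0.65 and 1.23. The call was close to its threshold. It was lost in 6 of the 8 fits without 1 library (Mutant 2, 3 or 4, or Wild type 1, 2 or 4 left out), where the log2 fold change was 0.59 to 0.75 and the adjusted p reached 0.0954, and the exact permutation test on this gene alone gave a two-sided p of 0.0857, where 0.0286 is the smallest the design allows. On the opposite strand, exons of *Gm48529* share 62.4% of the exonic bases of *Tagln* and those of *Pcsk7* 5.43%. The use of strand in counting is not given, so the 3 genes' reads may not be separated. *Gm48529* rose by 0.41 (adjusted p = 0.0409) and *Pcsk7* by 0.36 (adjusted p = 0.00904). Of 7 markers of fibroblasts, cells that can also make *Tagln*, 2 rose and 2 fell, where 21.5% of all genes were higher and 22.9% lower. Their summed level was 132 to 170 in the Mutant and 112 to 150 in the Wild type libraries, and their part in the *Tagln* counts was not tested.

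*Cnn1*, the actin-binding protein calponin of mature smooth muscle (chromosome 9, 22099216 to 22109630, plus strand), had 8.9, 22.1, 24.4 and 47.0 normalized counts in Mutant 1 to 4 and 42.4, 25.4, 59.7 and 33.7 in Wild type 1 to 4. These are the counts closest to the noise among the 10 genes, with a ratio of highest to lowest library of 6.73. The log2 fold change of -0.63 had an SE of 0.44 and a 95% interval of -1.59 to 0.34 (adjusted p = 0.268), so neither a fall nor a modest rise could be told from no change.

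Promoter sequence was matched for 7 of the 10 genes in RefSeq (GRCm38.p6), taken as the 250 bases before the start site. The windows of *Acta2*, *Cnn1* and *Rgs5* are shown 5′ to 3′ because they hold a contractile gene with the SRF motif, a contractile gene without it in this window, and the most abundant pericyte gene. Capitals mark a CArG-like box, which is a CArG box with at most 1 base of its A/T core replaced by G or C.
Acta2: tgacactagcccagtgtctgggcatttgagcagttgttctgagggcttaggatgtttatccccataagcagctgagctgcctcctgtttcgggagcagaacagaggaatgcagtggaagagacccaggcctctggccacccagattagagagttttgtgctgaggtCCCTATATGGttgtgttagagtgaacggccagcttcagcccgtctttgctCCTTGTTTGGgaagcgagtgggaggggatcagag
Cnn1: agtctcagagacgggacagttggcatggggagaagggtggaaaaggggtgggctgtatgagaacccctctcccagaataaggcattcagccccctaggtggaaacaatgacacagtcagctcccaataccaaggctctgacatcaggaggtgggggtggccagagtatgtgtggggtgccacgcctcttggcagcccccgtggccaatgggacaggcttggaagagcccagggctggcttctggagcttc
Rgs5: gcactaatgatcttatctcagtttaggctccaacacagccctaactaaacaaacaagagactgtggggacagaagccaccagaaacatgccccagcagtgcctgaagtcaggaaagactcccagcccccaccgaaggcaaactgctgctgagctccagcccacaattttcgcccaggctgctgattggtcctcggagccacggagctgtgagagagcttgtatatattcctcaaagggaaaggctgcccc
The *Acta2* window (chr19:34255374-34255623, minus strand) held 2 such boxes, 84 to 75 and 34 to 25 bases before the start. The windows of *Cnn1* (chr9:22099003-22099252, plus strand) and *Rgs5* (chr1:169655251-169655500, plus strand) and those of *Notch3*, *Cspg4*, *Anpep* and *Vtn* held none, searched on both strands. Over all 32851 promoters of this length, 8.59% held a CArG-like box. The letters TGGGAA, the core of the motif bound by the Notch effector RBPJ, were found 27 to 22 bases before the start of *Acta2*. There they overlapped its second box. The same letters were found 236 to 231 bases before the start of *Vtn*, and in 21.6% of all promoters. A match in these letters is a description and not a binding site.

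The mural genes rose and fell together from library to library within each condition. To show this, each gene's log2 normalized count was set against the mean of its own condition. The 6 pericyte genes averaged -0.23, 0.06, 0.48 and -0.31 in Mutant 1 to 4 and -0.04, 0.45, 0.26 and -0.67 in Wild type 1 to 4. Mutant 3 was thus the high library of its condition and Wild type 4 the low one, across genes as different as a signalling regulator, a receptor and a matrix protein. Over the 8 libraries all 15 pairs of pericyte genes were positively correlated (r from 0.73 to 0.985, median 0.90), a description of points that share library and scaling. The smooth muscle genes averaged -0.94, 0.18, 0.47 and 0.29 in the Mutant and -0.00, 0.01, 0.54 and -0.55 in the Wild type libraries. Their 6 pairs had r from 0.41 to 0.98, and the 3 pairs with the sparse *Cnn1* were the lowest. The 24 pairs of 1 pericyte and 1 smooth muscle gene had a median r of 0.72 and were negative for 2 pairs. Mutant 1 set the groups apart: it was mildly low for pericyte genes and the lowest Mutant library for all 4 smooth muscle genes.

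**Figure D2:**
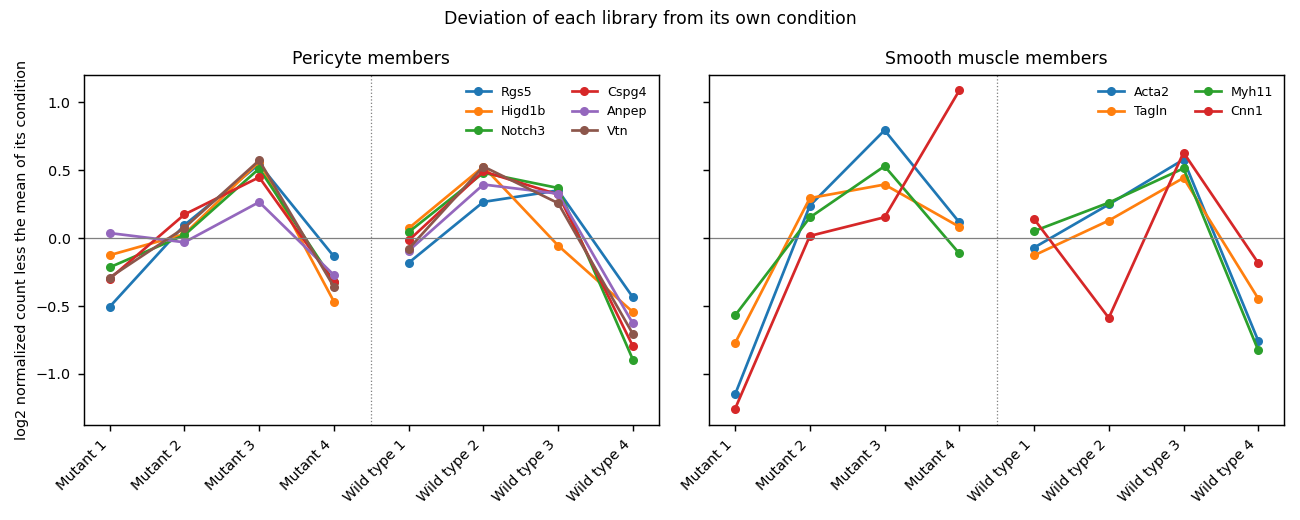
Deviation of each library (x axis) from the mean of its own condition in log2 normalized count, 1 line per gene, for the 6 pericyte genes and the 4 smooth muscle genes. The pericyte lines run together with means of 0.48 in Mutant 3 and -0.67 in Wild type 4, and the smooth muscle lines average -0.94 in Mutant 1.

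This spread set the precision of the comparison. The coefficient of variation among pups ran from 15.3% (*Anpep*) to 61.9% (*Cnn1*) in the Mutant and from 25.0% (*Rgs5*) to 36.4% (*Cnn1*) in the Wild type libraries. Summed over the 6 pericyte genes the level was 184 ± 54.7 RPKM in the Mutant (136 to 259) and 227 ± 61.5 in the Wild type libraries (152 to 280), and *Rgs5* made up most of both. Summed over the 4 smooth muscle genes it was 51.5 ± 21.2 (24.2 to 75.7) and 60.1 ± 20.7 (34.6 to 83.9). Relative to the summed level of 10 endothelial genes, the pericyte genes came to 5.60% ± 1.92 in the Mutant and 6.53% ± 2.10 in the Wild type libraries. The smooth muscle genes came to 1.58% ± 0.717 and 1.74% ± 0.740. *Cdh5*, whose promoter is in the transgene, rose in the Mutant libraries, and without it the pericyte shares were 6.85% ± 2.18 and 7.11% ± 2.28, while the smooth muscle shares, at 1.93% ± 0.841 and 1.90% ± 0.809, turned in direction. All of these differences were smaller than 1 SD. Of the 10 endothelial genes 3 rose, *Cdh5* among them, and 3 fell, where 21.5% of all genes were higher and 22.9% lower. *Cldn5*, which fell (-0.47), made up 1356 of 3339 RPKM in the Mutant and 1876 of 3518 in the Wild type sum. Neither denominator is therefore a fixed reference, and the shares also carry changes of endothelial genes. The log2 ratio of the smooth muscle sums, Mutant over Wild type, was -0.26 and turned to 0.09 without Mutant 1.

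Ratios between mural genes of the same library remove what the genes share. Of the 45 ratios, 9 did not overlap between the conditions, and they were picked with their values in view. The share for ratios of other genes was not computed, so the count says nothing particular to mural genes. The ratio of *Acta2* to *Tagln* was 2.01, 2.51, 3.44 and 2.67 in Mutant 1 to 4 and 6.10, 6.37, 6.44 and 4.73 in Wild type 1 to 4. The ratio of *Tagln* to *Myh11* was 0.406, 0.516, 0.426 and 0.536 against 0.198, 0.205, 0.214 and 0.292. In these libraries transgelin transcripts were more abundant relative to smooth muscle actin and myosin transcripts in every Mutant library, including Mutant 1, in which all 3 were low for its condition. The ratio of *Rgs5* to *Cspg4* was 9.09, 9.94, 11.2 and 11.95 against 13.7, 13.1, 15.6 and 19.6. The remaining ratios that did not overlap were *Rgs5* to *Anpep*, *Rgs5* to *Tagln* and *Notch3* to *Cspg4*, lower in the Mutant libraries, and *Cspg4* to *Myh11*, *Anpep* to *Acta2* and *Anpep* to *Myh11*, higher.

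Since the mural genes rose and fell together across libraries, the fit was repeated with the level of 1 other pericyte gene as a covariate. This alternative was added after the data were seen, and why the genes moved together was not tested. *Pdgfrb*, the PDGF-B receptor by which pericytes are recruited, itself stood at 2436 ± 775 in the Mutant and 2089 ± 736 in the Wild type libraries (log2 fold change 0.22, adjusted p = 0.548), and its deviations correlated with the mean of the 6 pericyte genes at r = 0.993 over 8 libraries. At equal *Pdgfrb*, *Rgs5* (-0.62, adjusted p = 0.00557), *Notch3* (-0.38, adjusted p = 0.00137) and *Vtn* (-0.26, adjusted p = 0.0148) were lower in the Mutant libraries. *Myh11* was lower too (-0.57, adjusted p = 0.0103), and *Tagln* was higher (0.60, adjusted p = 0.0433). In that fit 22.1% of all genes were higher and 23.4% lower. Each of the 6 pericyte genes had a lower value there than with no covariate. *Notch3* went from -0.19 to -0.38, *Vtn* from -0.06 to -0.26 and *Higd1b* from 0.10 to -0.10, while *Pdgfrb* itself had a value above 0 that did not pass. These values are therefore relative to *Pdgfrb* and do not show a fall in the genes' own levels. With *Atp13a5*, a transporter gene of brain pericytes, as the covariate, the calls on *Rgs5* (-0.49, adjusted p = 0.0713), *Notch3* (-0.25, adjusted p = 0.291), *Vtn* (-0.12, adjusted p = 0.559) and *Myh11* (-0.43, adjusted p = 0.187) were absent, *Tagln* passed (0.71, adjusted p = 0.0451), and 22.5% of all genes were higher and 24.1% lower. The calls on these 3 pericyte genes and *Myh11* thus depended on which gene was the covariate. All 4 were already below 0 with no covariate, so their shared direction under both is no separate evidence.

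**Figure D3:**
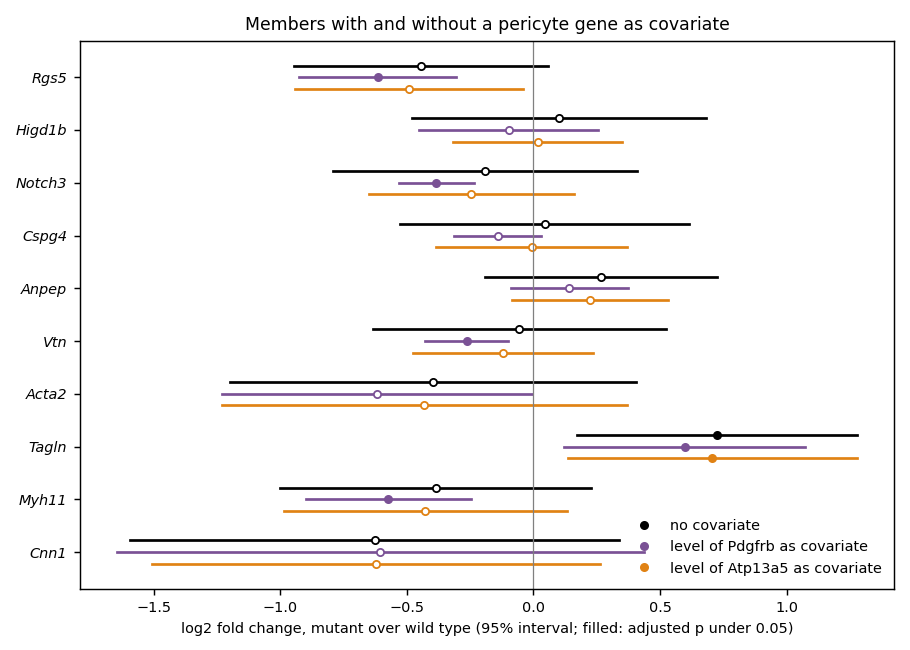
Log2 fold change of the 10 mural genes, Mutant over Wild type, with 95% intervals (x axis) and no covariate (black), the level of *Pdgfrb* (purple) or that of *Atp13a5* (orange) as covariate; filled points have an adjusted p under 0.05. *Tagln* is to the right of 0 and filled in all 3 fits (0.73, 0.60 and 0.71), and *Rgs5* is filled only with *Pdgfrb* (-0.62).

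A wider list of 23 pericyte genes was read in the same fit, and all 23 were tested. Of these, 2 rose, 2 fell and 19 did not pass, with a median log2 fold change of -0.07. Without Wild type 4, the library low in pericyte genes, 7 passed, and with the prefix as a block 10. Over all genes tested, 44.4% passed in either direction, 41.2% without Wild type 4 and 51% with the prefix as a block. *Abcc9*, which encodes the SUR2 subunit of the ATP-sensitive potassium channel of mural cells, rose most: it had 4984, 2691, 2958 and 3227 normalized counts in Mutant 1 to 4 and 872, 1373, 1115 and 674 in Wild type 1 to 4 (log2 fold change 1.78, SE 0.24, adjusted p = 2.4e-04). The lowest Mutant value was well over the highest Wild type value, and Mutant 1, the library low in smooth muscle genes, was the highest. *Kcnj8*, the Kir6.1 pore subunit of the same channel, rose from 306 ± 112 to 539 ± 101 (0.81, SE 0.25, adjusted p = 0.0242), also without overlap, though it missed the threshold when Mutant 1, Mutant 3 or Wild type 1 was left out (adjusted p up to 0.0616). *Ebf1*, a transcription factor that B cells also use, fell (-0.73, adjusted p = 2.3e-04), and so did *Pde5a*, the cyclic GMP phosphodiesterase of vascular muscle (-0.78, adjusted p = 0.00608). In Wild type 4, the library low in pericyte genes, *Ebf1* was the highest of all libraries (2792 normalized counts). *Pde5a* was the lowest of its condition there, in a narrow Wild type range of 812 to 962. Only *Abcc9* also exceeded a log2 fold change of 1, which with the same p threshold 5.9% of all genes did upwards and 8.05% downwards. Of the 19 that did not pass, 8 had a value above 0 and 11 below, from *Zic1* (-0.72, adjusted p = 0.138) and *Slc38a11* (-0.61, adjusted p = 0.135) to *Ednra* (0.44, adjusted p = 0.0902) and *Des* (0.45, adjusted p = 0.0623).

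Against a background of 21.5% of all genes higher and 22.9% lower, 24 other contractile and smooth muscle genes were read. Of these 23 were tested, and 6 rose, 4 fell and 13 did not pass, with a median log2 fold change of 0.19. Those that rose were *Sncg* (2.84, from 40.0 ± 11.0 to 286 ± 28.6 normalized counts), the integrin *Itga8* (1.87), the actin regulators *Cald1* (1.15) and *Tpm1* (0.54), *Crip1* (0.45) and *Smtn* (0.29). Those that fell were *Synpo2* (-2.33), *Pcp4l1* (-1.57), the calcium pump inhibitor *Pln* (-0.94) and the myosin phosphatase subunit *Ppp1r12b* (-0.31). The call on *Pln*, at 12.2 ± 4.52 normalized counts in the Mutant libraries, was lost without Mutant 2, 3 or 4 or Wild type 1 or 2 (adjusted p up to 0.127), and that on *Ppp1r12b* without Mutant 1, Mutant 4 or Wild type 1 (adjusted p up to 0.0569). Per length, *Tpm1* at 72.6 ± 6.79 RPKM and *Smtn* at 100.1 ± 8.21 RPKM in the Mutant libraries stood above *Acta2* at 33.5 ± 15.8 RPKM. The myosin light chain *Myl9*, by contrast, tracked the smooth muscle genes (r = 0.928 over 8 libraries) and, like *Acta2* and *Myh11*, did not pass (-0.16, 95% interval -0.81 to 0.48, adjusted p = 0.673). *Myocd*, the SRF coactivator that commits cells to smooth muscle, was sparse at 20.6 ± 8.67 and 27.7 ± 1.74 normalized counts (-0.40, adjusted p = 0.327).

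**Figure D4:**
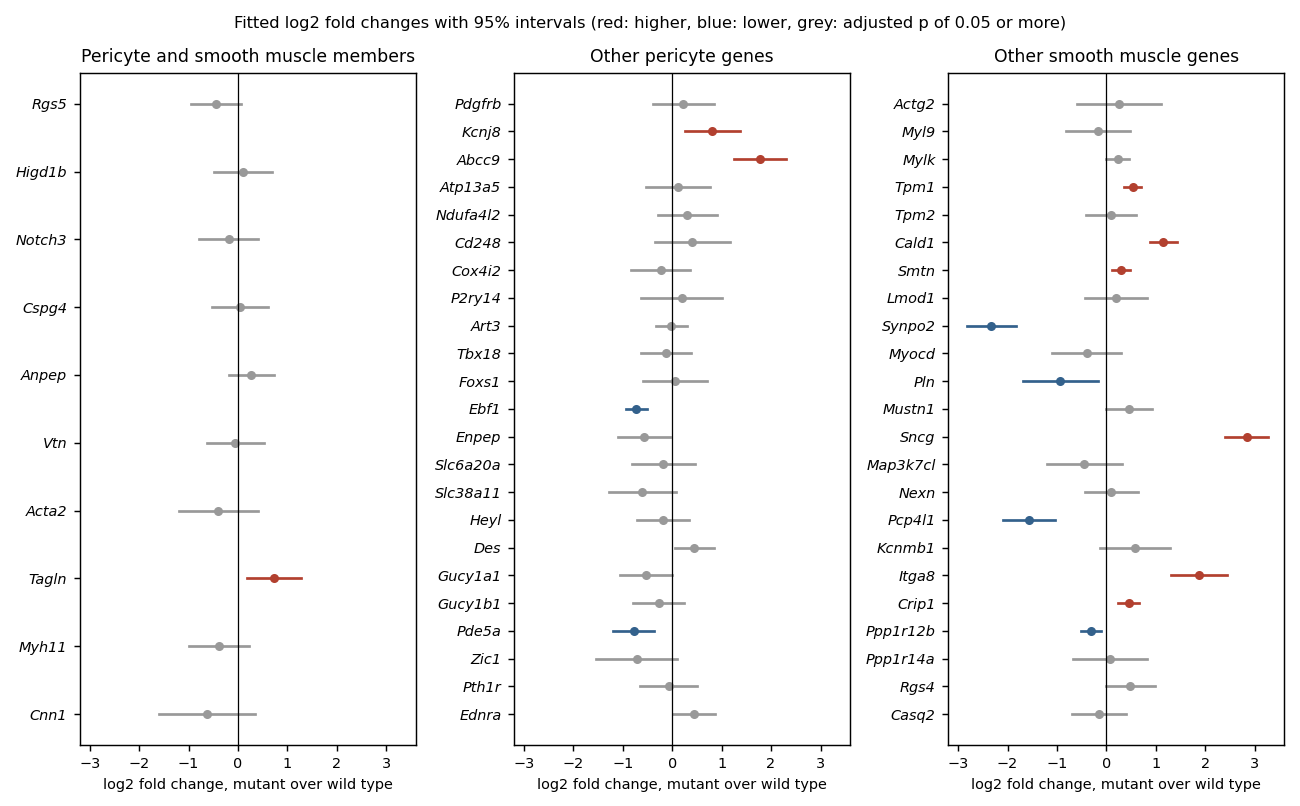
Log2 fold change, Mutant over Wild type, with 95% intervals (x axis) for the 10 mural genes, the 23 other pericyte genes and the 23 other smooth muscle genes tested, red where higher, blue where lower and grey where the adjusted p was 0.05 or more. Among the 10 only *Tagln* (0.73) is coloured, and in the wider lists *Abcc9* (1.78), *Sncg* (2.84) and *Synpo2* (-2.33) lie far from 0.

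Because reads of near-identical actin genes can be shared, the paralogs were checked beside *Acta2*. *Acta1* (0.39, adjusted p = 0.376) and *Actg2* (0.25, adjusted p = 0.618) did not pass, *Actb* did not pass (0.16, adjusted p = 0.0994), and *Actg1* rose (0.22, adjusted p = 0.0416), a call kept only without Mutant 3, Mutant 4 or Wild type 4 when single libraries were left out. *Actc1* was below the filter. How reads matching several genes were counted is not given, so the *Acta2* level is uncertain to that extent.

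The SRF axis and the signals between endothelium and mural cells were read from lists of 7 and 18 genes. Over all genes tested, 21.5% were higher and 22.9% lower, so calls in both directions were common in the series. *Klf4*, a factor known to repress contractile smooth muscle genes, fell from 35240 ± 2412 to 13363 ± 3462 normalized counts (-1.40, adjusted p = 1.0e-04), *Srf* fell (-0.37, adjusted p = 0.00493) and *Elk3* rose (0.37, adjusted p = 0.00629), while 4 of the 7 did not pass. Per length, *Klf4* stood at 148 ± 38.3 RPKM in the Mutant libraries, above *Acta2* in every library. Which cells its transcripts came from was not tested. Of the 18 signals 5 rose and 6 fell. *Angpt2*, the TIE2 ligand that loosens mural contact, rose from 3929 ± 1160 to 16004 ± 2962 (2.03, adjusted p = 3.9e-05), while its receptor *Tek* fell (-0.44, adjusted p = 0.00332). *Pdgfb*, the ligand that recruits pericytes, was 10525 ± 1417 and 9903 ± 632 (0.09, 95% interval -0.14 to 0.31, adjusted p = 0.507) and did not pass. *Tgfb1* rose (1.15, adjusted p = 5.6e-06), *Tgfb2* fell (-1.54, adjusted p = 2.0e-05) and the TGF-β co-receptor *Eng* fell (-0.42, adjusted p = 0.00899). *Cdh2*, the N-cadherin of endothelial-pericyte contacts, rose (0.62, adjusted p = 0.00106), as did *Mfge8* (0.41, adjusted p = 0.00167) and *S1pr1* (0.34, adjusted p = 0.0488). The Notch ligand *Dll4* fell (-0.33, adjusted p = 0.0445). The other signals that fell were *Edn1* (-0.81, adjusted p = 0.00304) and *Angpt1*, another TIE2 ligand (-0.57, adjusted p = 0.0354). The call on *Dll4* was kept only without Mutant 1 or 2, and that on *S1pr1* only without Mutant 3 or 4, when single libraries were left out.

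Outside the lists, the genes whose deviations were most like the mean of the pericyte genes, among 14038 genes over 8 libraries, were *Il34* (r = 0.976), *Rgma* (0.975), *Cnnm2* (0.974), *Atp1b2* (0.973) and *Trpc4* (0.972). Within the wider lists they were *Pdgfrb*, *Rgs4* (0.989), *Gucy1a1* (0.985), *Gucy1b1* (0.974) and *Cd248* (0.969). For the smooth muscle genes they were *Fat1* (0.976), *Gins1* (0.971), *Rnaseh2b* (0.970), *Sorcs1* (0.970) and *Serping1* (0.966), and within the lists *Mustn1* (0.960) and *Nexn* (0.948). Of these 10 outside the lists, *Cnnm2* (-1.03, adjusted p = 2.8e-04) and *Fat1* (-0.87, adjusted p = 7.9e-04) were lower in the Mutant libraries and 8 did not pass.

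Markers of other cells that the preparation could hold moved beside the mural genes, in a series where 21.5% of all genes were higher and 22.9% lower. All 5 red blood cell markers fell, with a summed level of 109 to 358 RPKM in the Mutant against 668 to 1161 in the Wild type libraries. Of 6 neuronal markers 4 fell (2.86 to 4.02 against 3.49 to 15.8), and of 4 choroid plexus and ependyma markers 2 fell (40.9 to 172 against 84.8 to 486). Microglia and macrophage markers summed to 64.4 to 220 against 70.4 to 231, and these overlapped. Of 6 astrocyte markers 1 rose (*Gja1*, which ECs also express) and 1 fell, and their sum was higher without overlap, at 196 to 238 against 113 to 135. Yet 4 of the 6 had a log2 fold change below 0 and the median was -0.59, so the sum does not describe most of the list. These lists had no gene at 0 in every library, and their part in the mural counts was not tested. The mural sums overlapped between the conditions, whereas those of red blood cells and oligodendrocyte precursors (lower) and of astrocytes (higher) did not. The astrocyte sum ran against most of its genes.

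**Figure D5:**
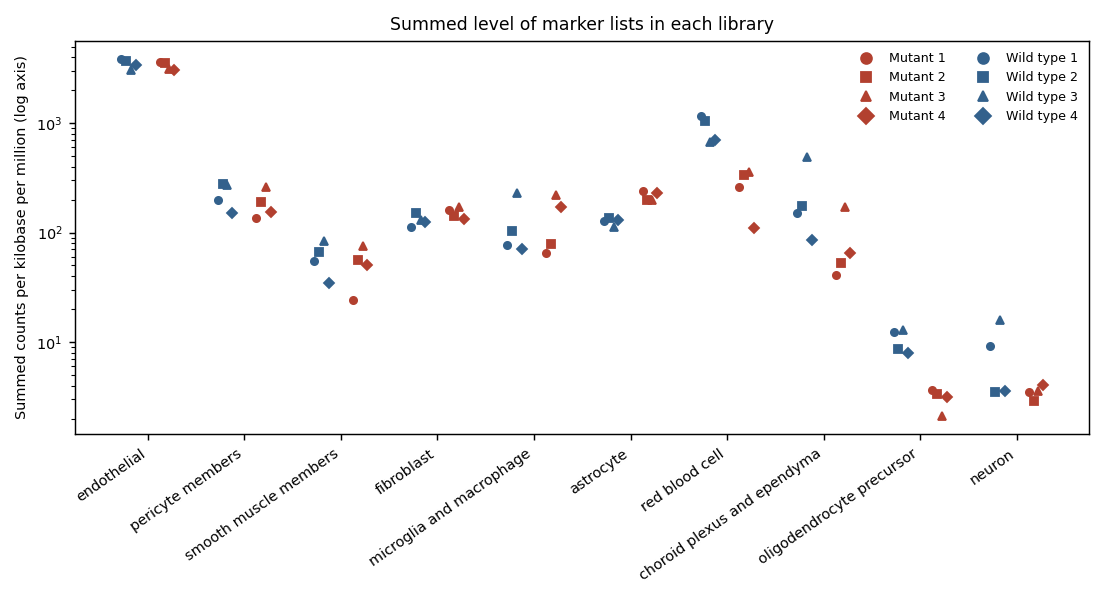
Summed level of each marker list (RPKM, log axis) in the 4 Wild type (blue) and 4 Mutant (red) libraries. The pericyte (136 to 280) and smooth muscle (24.2 to 83.9) sums overlap between conditions, while the red blood cell and oligodendrocyte precursor sums (lower in the Mutant libraries) and the astrocyte sum (higher) do not. Of the 6 astrocyte genes, 4 had a log2 fold change below 0.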

How the data were processed

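Brain ECs of 4 mutant and 4 wild-type pups were sequenced as poly(A) RNA, 1 library per pup. The authors trimmed the reads, aligned them to GRCm38 with STAR and deposited raw counts per gene. The counting program and its use of strand are not given in the sources used here. A deposited normalized set was not used.

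The analysis used edgeR 4.0.16 in R 4.3.3 (TMM scaling, filterByExpr with a minimum count of 10, glmQLFit and glmQLFTest, no covariate) over all genes. Levels per kilobase used the gene lengths in the files. All pairs of libraries of a condition differed beyond sampling noise, and none was merged. The procedure was tested on simulated data. DESeq2 1.42.0, other scalings and filters, blocks and left-out libraries were alternatives.

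The members and lists were chosen with earlier results of these data known, and 1 gene of the wider pericyte list is not reported here. Beside the 10 members, genes were named if they passed with an absolute log2 fold change over 1, then up to 6 more per list by mean level, with *Pdgfrb*, *Kcnj8*, *Abcc9*, *Myl9*, *Myocd*, *Pdgfb*, *Angpt2*, the actins and the genes most alike in pattern. *Atp13a5*, *Zic1*, *Slc38a11*, *Ednra*, *Des*, *Edn1*, *Angpt1*, *Gja1*, *Gm48529*, *Pcsk7* and the marker genes were named after their values were seen. Deviations and exact tests used log2 of the normalized count plus 0.5.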

Additional observations from a re-analysis of the deposited data

How the results depend on the processing

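Over the 10 mural genes and the alternatives tried, 143 of 170 values kept their direction and their side of the threshold, 7 lost the call, 7 gained it and 13 changed sign, all of these last among genes that did not pass. Deviations of same-numbered libraries correlated at 0.187, 0.192, 0.276 and 0.0167, not all above 0.1, so the numbers were not taken as pairs, though pups were matched by litter. That check bears on the replicate numbers and cannot decide whether the prefixes group the pups. With a replicate block or the label prefix as a block, 1 pericyte gene was called in place of 0 (*Rgs5*, -0.46 with adjusted p = 0.0102 and -0.45 with adjusted p = 0.0418), and 10 of the wider pericyte list in place of 4. With *Pdgfrb* as a covariate, 3 pericyte, 2 smooth muscle and 9 wider pericyte genes were called, and with *Atp13a5*, 7 wider pericyte genes. Upper quartile scaling left 0 smooth muscle genes (*Tagln* 0.66, adjusted p = 0.0618), whereas DESeq2, other filters and RLE scaling left the call. Without 1 library, 0 to 1 pericyte genes, 0 to 1 smooth muscle genes and 3 to 7 wider pericyte genes were called, the 7 without Wild type 4. The cause of these changes was not tested.

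*Cspg4* changed sign with upper quartile scaling (-0.019), with *Pdgfrb* (-0.14) and with *Atp13a5* (-0.0077) as covariate, and *Higd1b* with *Pdgfrb* (-0.10). Without 1 library *Higd1b* ran from -0.12 to 0.30, *Cspg4* from -0.16 to 0.21, *Vtn* from -0.28 to 0.13, and, with no change of sign, *Notch3* from -0.41 to -0.04, *Anpep* from 0.096 to 0.40 and *Cnn1* from -1.09 to -0.34. Among other genes, *Pdgfrb* ran from -0.00062 to 0.38, *Myl9* from -0.38 to 0.077, *Rgma* from -0.29 to 0.14 and *Rnaseh2b* from -0.13 to 0.023. The median over all genes moved from -0.09 to 0.01 between settings.

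With 4 pups per condition and the spread seen among them, a small change in mural content could not be resolved. For some genes a larger fall was not excluded either. The interval of the log2 fold change ran from -0.95 to 0.06 for *Rgs5* and from -1.20 to 0.40 for *Acta2*. It ran from -1.002 to 0.23 for *Myh11* and from -1.59 to 0.34 for *Cnn1*. The other pericyte genes had lower ends between -0.79 (*Notch3*) and -0.19 (*Anpep*). The p-values weigh the difference between the conditions against the spread between these pups. In the block and covariate fits, that spread is what was left after the adjustment.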
